A study of Mus musculus with 24 samples.

Results

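The genes described here are 8 genes of astrocytic engulfment, the machinery by which astrocytes take up synaptic material. They are the receptors *Megf10*, *Mertk*, *Axl*, *Tyro3* and *Lrp1*, the bridging ligands *Gas6* and *Pros1*, and the adaptor *Gulp1*. They were chosen by name for their part in synapse pruning, and they are 8 of the 49671 genes counted. RNA-seq was performed on 24 mouse libraries in 6 groups of 4. NSC were neural stem cells grown from 1 embryonic stem cell line of C57Bl/6 N mice in FGF and EGF, and AGES were astrocytes generated from these NSC with 20 ng/ml BMP4 for 3 to 5 days without those growth factors. Primary astrocytes of C57BL/6J mice of both sexes were enriched with magnetic beads against ACSA-2, an epitope of the astrocytic protein ATP1B2, from pooled brains of 2 mice per isolation. They came from neonatal mice of 4 to 8 days (neoAC) or adult mice of 100 to 140 days (AdAC), and were snap-frozen after isolation (direct) or cultured for 7 to 10 days (CellC). NSC and AGES replicates were independent cultures of different passages of that line, so they carry no variation between lines. NSC and AGES differ from the primary cells in substrain as well as in origin. Medium, plate coating and time in culture also differed between AGES and the cultured primary cells. These cannot be told apart from origin. Neonatal and adult brains were dissected and dissociated differently, so age and isolation protocol cannot be told apart. For adult cells the methods name removal of the olfactory bulb and cerebellum under direct isolation. Whether this held for AdAC CellC is not stated, so brain region may differ along with culture there.

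Engulfment begins when phosphatidylserine is exposed on the outer face of a membrane. MERTK, AXL and TYRO3, the TAM receptor tyrosine kinases, do not bind this lipid themselves but bind GAS6 or protein S (encoded by *Pros1*), which hold the lipid through a vitamin K-dependent domain. MERTK and TYRO3 respond to both ligands and AXL to GAS6, while MEGF10 and LRP1 form other routes of uptake, and GULP1 is a cytoplasmic adaptor that binds the tails of such receptors. In the brain, MEGF10 and MERTK are the receptors best known for synapse elimination by astrocytes. The study measured uptake of synaptosomes by cultured neonatal and adult astrocytes and by AGES, and reported no differences between them. It gave no uptake values for NSC or directly isolated astrocytes. The study also ran a principal component analysis of synapse pruning genes in these RNA data. There AGES and the cultured astrocytes lay together and apart from NSC. It took differences between cultured and direct cells as support for a change of pruning capacity with culture. The comparisons of RNA below address which engulfment genes each group expressed.

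Libraries held 27904126 to 37997368 counts, and all 8 genes were among the 19691 kept for testing. Levels are TMM-scaled CPM (library counts scaled to a common total), given as mean ± SD (n = 4). Astrocyte markers were above 1 CPM in all 6 groups, with a summed level of 9 markers from 918 to 1411 CPM in AdAC CellC, the lowest of the groups, against 15997 to 16725 in AdAC direct. The sum was also lower in neonatal culture, at 7405 to 8607 CPM in neoAC CellC against 21194 to 24183 in neoAC direct. It was 1942 to 2470 CPM in NSC and 55108 to 60034 in AGES. *Gja1* and *Aldh1l1* had means of 10.3 and 15.0 CPM in AGES and of 15.5 and 18.8 CPM in NSC, while *Gfap* reached 50503 CPM in AGES. The sum of 6 oligodendrocyte markers was 25603 to 28424 CPM in AdAC direct and 4092 to 10432 in AdAC CellC, but at most 394 CPM in the neonatal groups and at most 42.6 CPM in NSC and AGES. The sum of 12 microglial markers, of cells that also express TAM receptors, was 41.0 to 66.8 CPM in AdAC CellC, 22.0 to 34.8 in AdAC direct, 6.13 to 13.3 in neoAC CellC, 17.1 to 90.9 in neoAC direct, where replicate 2 was the highest, and at most 1.86 in NSC and AGES. From AdAC direct to AdAC CellC the mean of *C1qa* went from 3.29 to 12.6 CPM, of *C1qb* from 3.20 to 11.9, of *C1qc* from 3.23 to 11.7 and of *Tyrobp* from 0.779 to 5.55, while *Cx3cr1* went from 2.77 to 0.715 and *P2ry12* from 3.96 to 0.747. *Csf1r* was highest in neoAC direct, at 13.0 CPM. The sum of 3 ependymal markers was 113 to 170.5 CPM in neoAC direct and 1241 to 1571 in neoAC CellC, against 870.2 to 979 in AdAC direct and 192 to 270.1 in AdAC CellC. Markers of neural stem cells and cycling cells summed to at most 302 CPM in AdAC direct, 1817 to 2059.9 in AdAC CellC, 880.2 to 1134 in neoAC direct and 1503 to 2106 in neoAC CellC. Endothelial markers summed to 71.6 to 292 CPM in neoAC direct and 4.19 to 6.81 in neoAC CellC, and to 75.0 to 80.6 and 46.4 to 61.9 in the adult groups. Pericyte and fibroblast markers summed to 746 to 1046 CPM in AdAC CellC, where *Col1a1* alone had 813 CPM, 397 to 427 in AdAC direct, 225 to 321 in neoAC CellC, 309.6 to 618 in neoAC direct and at most 3.55 in NSC and AGES. The part of these other cells in the levels below was not tested, and in such bulk libraries fewer cells of a type and less RNA per cell cannot be told apart.

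The 250 bases before the RefSeq start of *Axl*, *Mertk* and *Gas6* are shown because *Mertk* had the largest change of the 8 genes with adult culture, *Gas6* the largest with neonatal culture, and *Axl* changed in opposite directions at the 2 ages (build GRCm38.p6, sequences from RefSeq, each 5′ to 3′ on the strand of its gene). Capitals mark GC boxes, the letters GGGCGG on either strand, which read CCGCCC when the box lies on the other strand. *Axl* lies on the minus strand of chromosome 7 (25757273 to 25788705, 19 merged exons), *Mertk* on the plus strand of chromosome 2 (128698956 to 128802894, 19 merged exons) and *Gas6* on the minus strand of chromosome 8 (13465374 to 13494490, 15 merged exons). None of the 3 windows overlaps an annotated exon.
Axl, chr7:25788734-25788983: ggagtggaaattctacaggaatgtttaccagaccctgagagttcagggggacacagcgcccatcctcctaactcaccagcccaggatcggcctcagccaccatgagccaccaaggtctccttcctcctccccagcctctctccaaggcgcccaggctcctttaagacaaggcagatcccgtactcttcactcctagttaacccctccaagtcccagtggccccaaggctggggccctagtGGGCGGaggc
Mertk, chr2:128698665-128698914: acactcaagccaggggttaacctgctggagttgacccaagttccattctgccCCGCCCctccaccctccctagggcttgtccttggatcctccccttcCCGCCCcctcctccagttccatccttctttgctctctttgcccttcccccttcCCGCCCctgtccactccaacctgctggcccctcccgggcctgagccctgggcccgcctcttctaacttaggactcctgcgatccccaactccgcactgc
Gas6, chr8:13494536-13494785: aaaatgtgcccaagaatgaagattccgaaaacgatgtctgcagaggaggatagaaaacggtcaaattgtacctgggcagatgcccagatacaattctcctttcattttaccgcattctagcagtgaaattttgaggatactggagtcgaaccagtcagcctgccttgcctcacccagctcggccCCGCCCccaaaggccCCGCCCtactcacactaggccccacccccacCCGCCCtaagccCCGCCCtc
A GC box was found once before *Axl*, 3 times before *Mertk* and 4 times before *Gas6*, and 32.7% of all 32817 RefSeq windows of this length held at least 1. Neither TGANTCA, the AP-1 motif, nor TATAAA, both searched on both strands, occurred in any of these 3 windows, against 6.75% and 12.4% of all windows. These are matches of letters in a window, and no binding or chromatin was measured.

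Per kilobase of exon, the scale on which different genes can be compared, the TAM receptors differed between groups in their make-up. In AdAC direct *Mertk* made up 46.4% ± 2.82 (SD, n = 4) of the 3 receptors, *Tyro3* 33.4% ± 1.72 and *Axl* 20.2% ± 1.22. In AdAC CellC *Axl* made up 84.6% ± 3.02 and *Mertk* 2.99% ± 0.277. The summed level was 146 ± 4.43 CPM per kilobase in AdAC direct and 114 ± 7.21 in AdAC CellC. The largest share of the TAM pool was thus *Axl* in the AdAC CellC libraries and *Mertk* in those of AdAC direct. Which cells of these bulk libraries carried the transcripts was not tested. *Axl* was also the largest share in neoAC direct (73.3% ± 1.38), neoAC CellC (84.1% ± 0.948) and AGES (70.5% ± 1.66), while in NSC *Tyro3* was the largest (54.2% ± 5.72). The ratio of *Axl* to *Mertk* per kilobase was 0.437 ± 0.0532 in AdAC direct, 3.78 ± 0.485 in NSC, 4.29 ± 0.505 in neoAC direct, 8.93 ± 1.58 in AGES, 14.9 ± 2.01 in neoAC CellC and 28.5 ± 2.29 in AdAC CellC. Libraries of NSC and neoAC direct overlapped in this ratio, and the libraries of the other neighbouring groups did not.

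**Figure D1:**
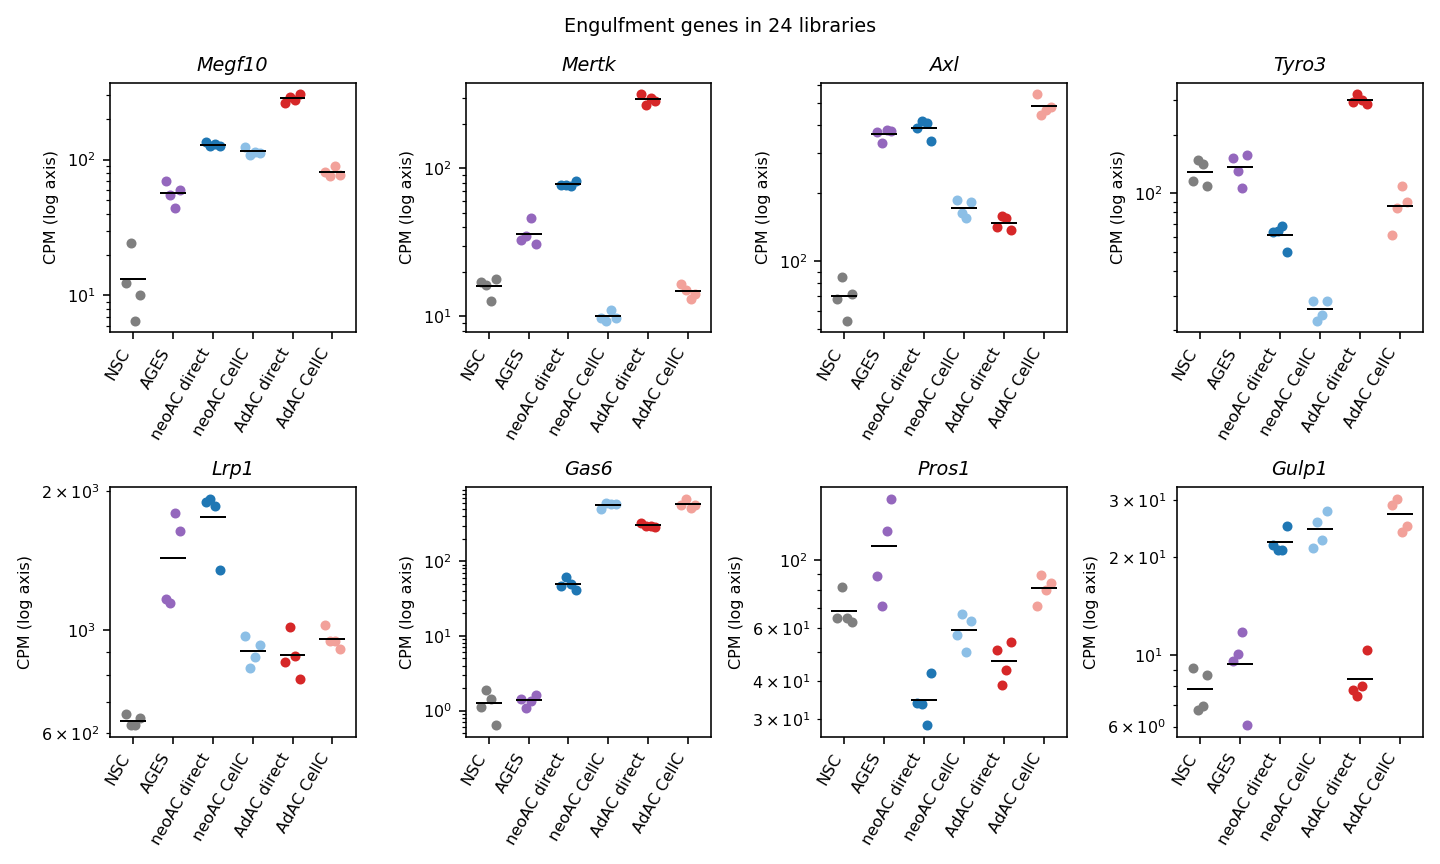
TMM-scaled CPM (log axis, with its own range in each panel) of the 8 engulfment genes in NSC, AGES, and directly isolated or cultured neonatal and adult astrocytes. Each point is 1 library and each line the mean of 4. *Mertk* was highest in AdAC direct (293 CPM) and at most 16.5 CPM in any cultured primary library, and *Gas6* was at most 1.88 CPM in NSC and AGES.

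The first comparison asked how the genes differed between adult astrocytes kept in culture and those snap-frozen after isolation. Of the 8 genes, 4 were higher in AdAC CellC (38.8% of all tested genes were called higher) and 3 were lower (39.2% of all tested genes). *Mertk*, the TAM receptor of phagocytes, had 319, 269.7, 299 and 285 CPM in the AdAC direct libraries and 16.5, 15.1, 13.0 and 14.2 CPM in the AdAC CellC libraries. The libraries did not overlap and *Mertk* was the gene of the 8 that fell furthest, to 0.0501 of its direct level (log2 fold change −4.32 ± 0.12 (SE), adjusted p = 8.51e-20, edgeR's quasi-likelihood test with Benjamini-Hochberg adjustment over all tested genes, as for all adjusted p-values below unless another test is named). *Tyro3*, a TAM receptor that in the brain is mostly known from neurons and myelination, had 293, 324, 300.4 and 287 CPM in AdAC direct and 61.3, 84.8, 109.7 and 90.4 CPM in AdAC CellC. It fell by 1.80 on the log2 scale (SE 0.15, adjusted p = 3.82e-11). In replicates 1 to 4 of AdAC CellC the oligodendrocyte marker sum was 4092, 8493, 10432 and 7869 CPM. The lowest and the highest *Tyro3* came with the lowest and the highest sum there. In replicates 1 to 4 of AdAC direct the sum was 26897, 25603, 27497 and 28424 CPM. There the highest *Tyro3* came with the lowest sum, and the lowest *Tyro3* with the highest sum. This relation was not tested. Neuron markers summed to 262 to 296 CPM in AdAC direct and to 350 to 415 in AdAC CellC. Oligodendrocyte precursor markers summed to 1072 to 1294 CPM and to 356 to 592. The part of these cells in *Tyro3* was not tested either.

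*Axl*, the TAM receptor that is typically induced in responding cells, moved the other way. It had 142, 159, 155 and 137 CPM in AdAC direct and 549, 443, 466 and 481 CPM in AdAC CellC, a 3.27-fold higher level in culture (log2 fold change 1.71 ± 0.11, adjusted p = 1.54e-13). Every cultured library was above every directly isolated one.

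In neonatal astrocytes 2 of the 8 genes were higher in culture (34.4% of all tested genes were called higher) and 4 were lower (31.3% of all tested genes). *Mertk* had 76.6, 77.01, 76.1 and 82.0 CPM in neoAC direct and 9.77, 9.33, 11.1 and 9.73 CPM in neoAC CellC, again with no overlap (log2 fold change −2.97 ± 0.12, adjusted p = 8.42e-17). *Tyro3* had 63.2, 64.3, 68.1 and 50.1 CPM in neoAC direct and 22.3 to 28.3 CPM in neoAC CellC, and fell by 1.26 on the log2 scale (SE 0.15, adjusted p = 4.95e-08). Both genes thus fell in culture at both ages. *Axl* had 386, 415, 407 and 339 CPM in neoAC direct and 187, 164, 155 and 182 CPM in neoAC CellC, which is a fall (log2 fold change −1.17 ± 0.10, adjusted p = 3.81e-10) where the adult cells showed a rise.

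The difference between the ages in the change with culture was tested as an interaction, the adult change minus the neonatal change. It was positive for 3 of the 8 genes (35.4% of all tested genes) and negative for 4 (33.2% of all tested genes). For *Axl* it was 2.88 ± 0.15 on the log2 scale (adjusted p = 1.11e-14), the largest of the 8 in size. *Mertk* fell more in adult than in neonatal culture (−1.35 ± 0.16, adjusted p = 3.13e-08). For *Tyro3* the interaction of −0.54 ± 0.20 (adjusted p = 0.0221) lost its call without AdAC CellC replicate 1, neoAC CellC replicate 1 or 4, or neoAC direct replicate 4, with values of −0.39 to −0.48.

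**Figure D2:**
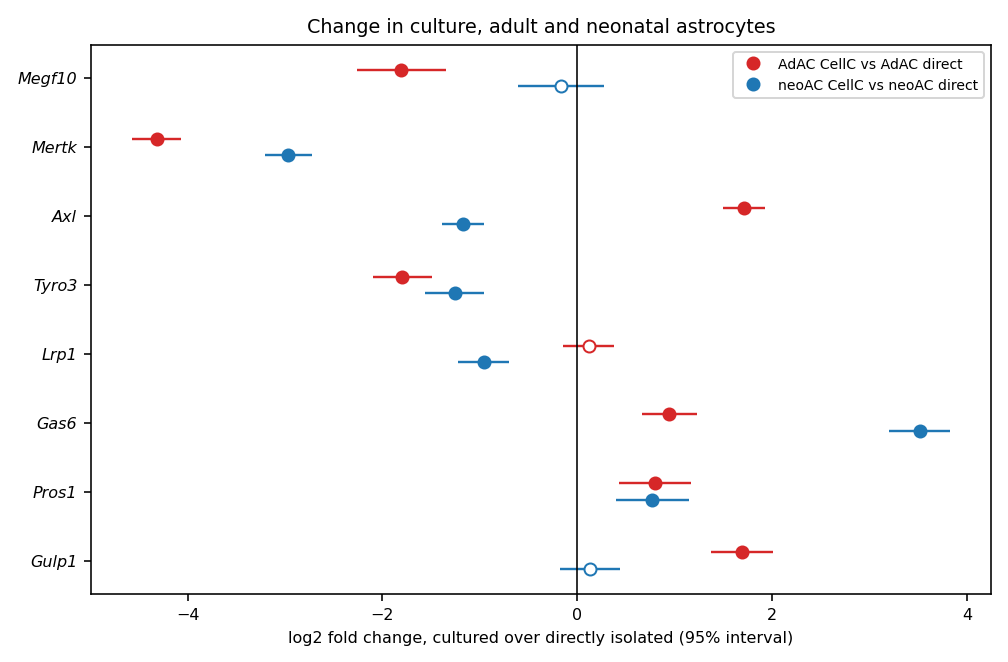
Log2 fold change of the 8 genes in cultured over directly isolated astrocytes, adult in red and neonatal in blue, with 95% intervals from edgeR. Filled points passed an adjusted p of 0.05 and open points did not. *Axl* was to the right of 0 in adult and to the left in neonatal cells, and *Mertk* was to the left at both ages (−4.32 and −2.97).

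*Megf10* encodes the MEGF10 engulfment receptor, which can bind complement C1q (chromosome 18, 57133090 to 57297467, plus strand, 26 merged exons). It had 259.9, 289, 276 and 304 CPM in AdAC direct and 75.1 to 89.6 CPM in AdAC CellC (log2 fold change −1.81 ± 0.22, adjusted p = 9.79e-08). Between neoAC direct (134, 125, 129.8 and 127 CPM) and neoAC CellC (125, 108, 114 and 112 CPM) the fitted change was −0.17, with a 95% interval of −0.61 to 0.27 (adjusted p = 0.505). Its libraries did not overlap, the change was called in a fit of these 2 groups alone (−0.20, adjusted p = 0.0253). Scaling by total counts only turned its sign (0.061). The adult and neonatal changes differed by −1.64 ± 0.30 (adjusted p = 5.13e-05). In the order of means, *Megf10* went from AdAC direct through neoAC direct, neoAC CellC, AdAC CellC and AGES to NSC, and no neighbouring groups in this order overlapped. The nearest libraries of neoAC direct and neoAC CellC were close, at 124.94 and 124.55 CPM with TMM scaling.

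*Lrp1* encodes a large endocytic receptor of the LDL receptor family that takes up many ligands and takes part in engulfment with calreticulin (chromosome 10, 127538161 to 127621148, minus strand, 88 merged exons). Per kilobase it had the highest mean of the 8 genes in NSC (36.1), AGES (81.0) and neoAC direct (99.0), and in AGES and neoAC direct its libraries overlapped those of *Axl*. It had 1890.1, 1924, 1854 and 1349 CPM in neoAC direct and 829.6 to 974 CPM in neoAC CellC, with replicate 4 of neoAC direct below the other 3 but still above every cultured library (log2 fold change −0.96 ± 0.13, adjusted p = 3.30e-07). In adult cells the libraries overlapped, at 785 to 1019 CPM in AdAC direct and 910.1 to 1029.9 CPM in AdAC CellC, and the change was 0.12 with an interval of −0.14 to 0.38 (adjusted p = 0.402). The adult and neonatal changes differed by 1.08 ± 0.18 (adjusted p = 9.02e-06).

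The 2 ligands and the adaptor were each higher in culture or not called, at both ages. *Gas6*, the ligand shared by the 3 TAM receptors, had 329.6, 296, 297 and 286 CPM in AdAC direct and 559, 691, 509 and 563 CPM in AdAC CellC (log2 fold change 0.94 ± 0.14, adjusted p = 9.23e-07). In neonatal cells it had 47.2, 61.0, 49.3 and 41.2 CPM in neoAC direct and 505, 598, 586 and 578 CPM in neoAC CellC, an 11.4-fold higher level (log2 fold change 3.51 ± 0.15, adjusted p = 4.36e-16). The neonatal rise exceeded the adult one (interaction −2.57 ± 0.20, adjusted p = 1.93e-11), and the difference between the 2 cultured groups was not called (−0.034, interval −0.31 to 0.25, adjusted p = 0.838). *Gas6* shared 34 exonic bases (1.33% of its exon length) with *Tmem255b* on the opposite strand, which had a mean of 21.0 counts per library.

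*Pros1*, which encodes protein S, the ligand of MERTK and TYRO3 (chromosome 16, 62854307 to 62929346, plus strand, 16 merged exons), rose with culture in adult cells, from 38.8 to 53.9 CPM to 70.7 to 89.4 CPM (log2 fold change 0.79 ± 0.18, adjusted p = 3.25e-04). It rose likewise in neonatal cells, from 28.6 to 42.5 CPM to 50.1 to 66.5 CPM (0.77 ± 0.18, adjusted p = 6.49e-04). Of the 8 genes, *Pros1* was the 1 without a called interaction (0.025, interval −0.50 to 0.55, adjusted p = 0.941). *Gulp1*, the adaptor (chromosome 1, 44551511 to 44796838, plus strand, 15 merged exons), had 7.81, 7.48, 8.02 and 10.4 CPM in AdAC direct and 29.1, 30.4, 23.99 and 25.1 CPM in AdAC CellC (1.69 ± 0.16, adjusted p = 3.14e-10). In neonatal cells *Gulp1* libraries overlapped, at 21.1 to 25.0 CPM and 21.3 to 27.9 CPM (0.13, interval −0.17 to 0.44, adjusted p = 0.448, but 0.36 and called with scaling by library size alone, adjusted p = 0.0396), and the ages differed (1.55 ± 0.21, adjusted p = 5.58e-07).

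**Figure D3:**
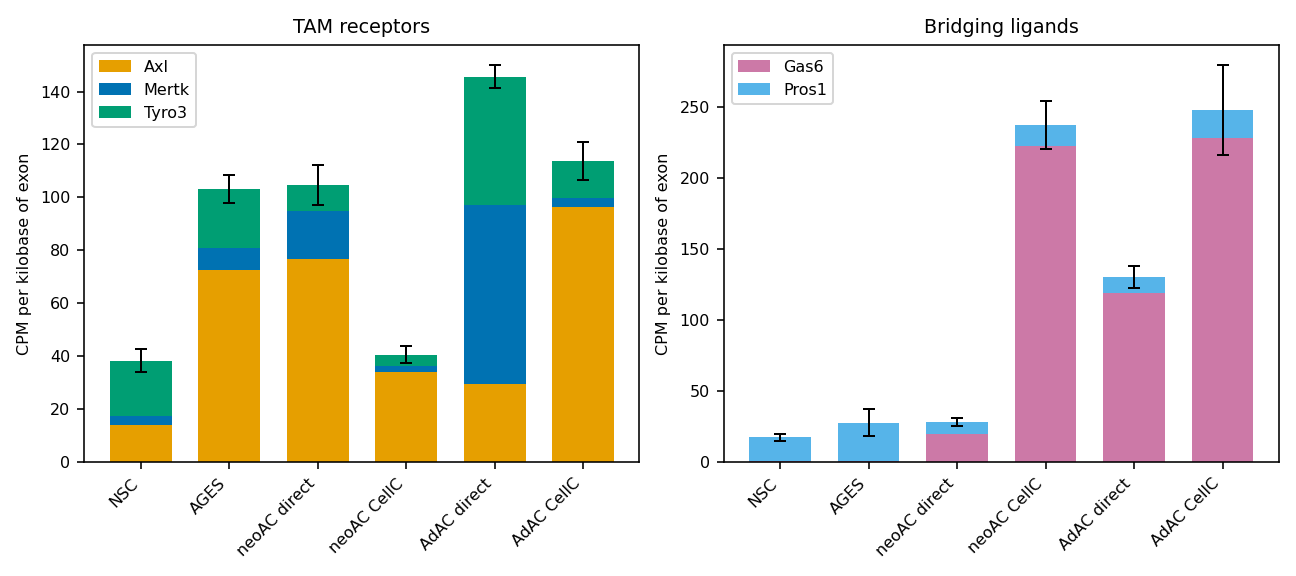
Mean CPM per kilobase of exon of the TAM receptors (left) and the bridging ligands (right), stacked, in the 6 groups, with the SD of the summed level over 4 libraries as error bars. *Gas6* made up most of the ligand bar in AdAC direct and in the 2 cultured primary groups and was not visible in NSC and AGES, where it was at most 0.739 CPM per kilobase in any library.

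The next comparison asked what differed between NSC and the AGES made from them. BMP4 was added as FGF and EGF were left out and the coating went from gelatin to poly-ornithine and laminin. These cannot be told apart. Of the 8 genes, 5 were higher in AGES (31.7% of all tested genes were called higher) and none was lower (34% of all tested genes were called lower). The count of lower genes was 0 by edgeR and 0 by the DESeq2 Wald test, and since the fitted change of all 8 was above 0 it was also 0 at an unadjusted p under 0.05. *Axl* had 68.2, 84.9, 54.6 and 71.8 CPM in NSC and 373, 334, 380.2 and 376 CPM in AGES, a 5.23-fold higher level (log2 fold change 2.39 ± 0.11, adjusted p = 4.13e-16). *Megf10* had 12.4, 24.2, 6.53 and 10.2 CPM in NSC and 69.8, 55.1, 44.1 and 59.6 CPM in AGES (2.10 ± 0.23, adjusted p = 2.33e-08). Neither gene had overlapping libraries, and the same held for *Mertk* and *Lrp1*. *Mertk* had 12.7 to 17.8 CPM in NSC and 30.7 to 46.3 CPM in AGES (1.18 ± 0.11, adjusted p = 6.15e-10), and *Lrp1* 624 to 662 CPM and 1144 to 1788 CPM (1.17 ± 0.13, adjusted p = 9.45e-09). Every AGES library was above every NSC library in 27.9% of all tested genes.

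*Pros1* was higher in AGES with overlapping libraries, at 64.6, 81.6, 64.9 and 62.5 CPM in NSC and 89.1, 70.6, 125 and 160.0 CPM in AGES (0.70 ± 0.18, adjusted p = 0.00127). *Tyro3* had 109.9 to 149 CPM in NSC and 107 to 157 CPM in AGES, with a difference of 0.082 and an interval of −0.21 to 0.38 (adjusted p = 0.641). *Gulp1* differed by 0.25 (interval −0.072 to 0.58, adjusted p = 0.165), which became 0.41 with an adjusted p of 0.0113 without AGES replicate 4.

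*Gas6* was low but detected in every library of NSC and AGES. It had 34, 62, 45 and 19 counts in the NSC libraries and 37, 37, 42 and 49 counts in the AGES libraries, against a floor of 3 counts per library. In CPM this was 1.26 ± 0.526 in NSC and 1.37 ± 0.226 in AGES (log2 fold change 0.093, interval −0.38 to 0.56, adjusted p = 0.750). The *Axl* level of AGES thus lay between those of neonatal and adult cultured astrocytes, while its ligand *Gas6* was scarce. Per kilobase, the ratio of *Gas6* to *Pros1* was 0.0209 ± 0.00497 in AGES and 0.0291 ± 0.00947 in NSC, against 2.36 ± 0.610 in neoAC direct, 10.5 ± 1.55 in AdAC direct, 11.5 ± 1.22 in AdAC CellC and 15.5 ± 2.16 in neoAC CellC. *Pros1* was thus the more abundant ligand transcript in NSC and AGES and *Gas6* in each primary group.

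AGES were then set against each cultured primary group, 2 comparisons that share the AGES libraries. Against AdAC CellC, 4 genes were higher (31% of all tested genes) and 4 lower (45.2% of all tested genes, and the median change of all genes was −0.23). Against neoAC CellC, 5 were higher (34.1% of all tested genes) and 3 lower (40.5% of all tested genes). *Gas6* differed most, by −8.73 ± 0.20 against AdAC CellC (adjusted p = 4.19e-22) and −8.70 ± 0.20 against neoAC CellC (adjusted p = 3.14e-22). Pericyte and fibroblast markers, which sum to 225 CPM or more in every cultured primary library and at most 3.55 CPM in AGES, differ between the same groups, and their part in the *Gas6* level was not tested.

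*Gulp1* was also lower in AGES, by 1.54 on the log2 scale against AdAC CellC (−1.54 ± 0.15, adjusted p = 1.65e-09) and 1.38 against neoAC CellC (−1.38 ± 0.15, adjusted p = 1.17e-08). *Mertk* was higher in AGES than in both, by 1.30 ± 0.11 (adjusted p = 8.15e-11) and 1.86 ± 0.11 (adjusted p = 1.10e-13), with no overlap of libraries. *Tyro3* was higher by 0.66 ± 0.14 against AdAC CellC, where the libraries overlapped, and by 2.41 ± 0.15 against neoAC CellC (adjusted p = 2.11e-04 and 2.41e-13). *Lrp1* was higher by 0.58 ± 0.13 and 0.67 ± 0.13 (adjusted p = 1.96e-04 and 3.80e-05). *Axl* went in opposite directions, below AdAC CellC (−0.41 ± 0.10, adjusted p = 0.00100) and above neoAC CellC (1.09 ± 0.10, adjusted p = 7.38e-10), as the 2 cultured groups themselves differed in *Axl*.

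*Megf10* was lower in AGES than in neoAC CellC (−1.01 ± 0.22, adjusted p = 2.26e-04). Against AdAC CellC it was lower by 0.50 (−0.50 ± 0.22, adjusted p = 0.0401), a call that was lost without any 1 of the 8 libraries other than AGES replicate 1 (−0.39 to −0.52, adjusted p up to 0.126) and by the DESeq2 Wald test (−0.46, adjusted p = 0.0592). *Pros1* was higher in AGES than in neoAC CellC (0.91 ± 0.18, adjusted p = 7.05e-05). Against AdAC CellC the value was 0.46 ± 0.18 (adjusted p = 0.0228), with overlapping libraries, and the call was lost without AGES replicate 3 (0.39), AGES replicate 4 (0.23) or AdAC CellC replicate 1 (0.40) and with scaling by library size alone (0.23, adjusted p = 0.232).

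**Figure D4:**
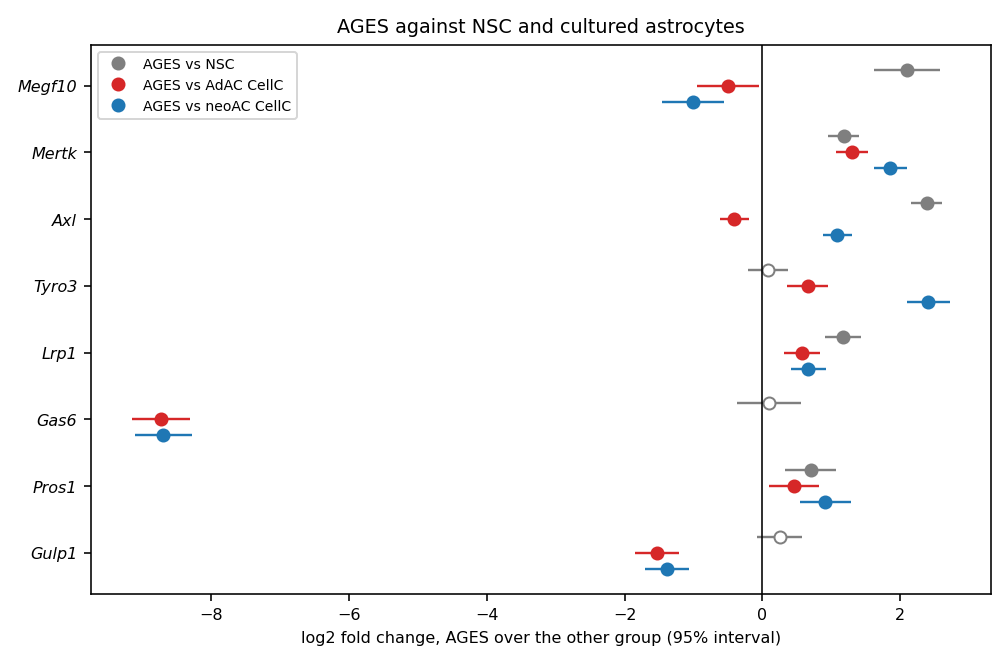
Log2 fold change of the 8 genes in AGES over NSC (grey), AdAC CellC (red) and neoAC CellC (blue), with 95% intervals from edgeR. Filled points passed an adjusted p of 0.05. *Gas6* lay at −8.73 and −8.70 against the cultured astrocytes and at 0.093 against NSC, and the 5 receptors lay between −1.01 and 2.41.

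The last comparisons were between ages, and share their libraries with the culture comparisons. Among directly isolated cells 3 of the 8 genes were higher in neonatal astrocytes (35% of all tested genes) and 5 were lower (36.4% of all tested genes). The higher genes were *Axl* (1.39 ± 0.11, adjusted p = 1.19e-11), *Gulp1* (1.40 ± 0.15, adjusted p = 1.27e-08) and *Lrp1* (0.99 ± 0.13, adjusted p = 1.67e-07). *Gas6* (−2.60 ± 0.15, adjusted p = 3.09e-14), *Tyro3* (−2.29 ± 0.15, adjusted p = 7.78e-13), *Mertk* (−1.91 ± 0.11, adjusted p = 4.35e-14) and *Megf10* (−1.13 ± 0.21, adjusted p = 6.34e-05) were lower. None of these 7 had overlapping libraries, as was the case in 64.9% of all tested genes in either direction. Oligodendrocyte markers summed to 321 to 394 CPM in neoAC direct and to 25603 CPM or more in AdAC direct, and their part in these differences was not tested. *Pros1* was lower by 0.43 (−0.43 ± 0.18, adjusted p = 0.0365), and lost its call without AdAC direct replicate 1 or 4 or neoAC direct replicate 1, 2 or 3 (−0.34 to −0.42), or with no filter on low counts (−0.39, adjusted p = 0.114).

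In culture 1 gene was higher in neonatal cells (28.5% of all tested genes) and 4 were lower (35.2% of all tested genes). *Tyro3* (−1.75 ± 0.15, adjusted p = 2.26e-10), *Axl* (−1.49 ± 0.11, adjusted p = 6.48e-12) and *Mertk* (−0.56 ± 0.11, adjusted p = 1.35e-04) were lower in neoAC CellC. *Megf10* (0.51 ± 0.21, adjusted p = 0.0424) lost its call without any 1 of the 8 libraries other than AdAC CellC replicate 3 (0.47 to 0.54). *Pros1* (−0.46 ± 0.18, adjusted p = 0.0289) lost it without AdAC CellC replicate 2, 3 or 4 or neoAC CellC replicate 1 or 3 (−0.37 to −0.45), and by the DESeq2 Wald test (−0.35, adjusted p = 0.108). *Axl* was thus higher in neonatal cells at isolation and higher in adult cells after culture. *Lrp1* (−0.089, interval −0.35 to 0.17) and *Gulp1* (−0.15, interval −0.46 to 0.15) were not called.

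Other genes of engulfment were read from 6 lists with 64 genes, of which 62 were tested. In AdAC CellC against AdAC direct 30 of these were higher and 18 lower, with a median log2 fold change of 0.32 against 0.00 over all tested genes. In neoAC CellC against neoAC direct 21 were higher and 27 lower, with a median of −0.20 against 0.041 over all tested genes. Of 15 other engulfment receptors tested, 10 were higher and 3 lower in adult culture, and 1 was higher and 9 lower in neonatal culture (all tested genes were 38.8% higher and 39.2% lower in adult culture and 34.4% and 31.3% in neonatal culture). Many of these receptors were low: of the 17 listed, those ranked 6 or lower by mean level had at most 7.79 CPM over the 24 libraries. The difference between the ages in these counts was not tested. The part of microglia, endothelium and other cells in them was not tested either. *Itgb5*, the integrin subunit that with *Itgav* binds MFGE8, rose in adult culture (1.52 ± 0.16, adjusted p = 4.17e-09) and fell in neonatal culture (−0.48 ± 0.16, adjusted p = 0.00849), the same directions as *Axl*, with an interaction of 2.00 ± 0.22 (adjusted p = 1.95e-08). The neonatal fall of *Itgb5* was not called with scaling by library size alone (−0.25, adjusted p = 0.143). *Adam17*, the protease that sheds MERTK and AXL from the membrane, also rose in adult culture (0.76 ± 0.08, adjusted p = 3.96e-09) and fell in neonatal culture (−0.48 ± 0.08, adjusted p = 9.93e-06).

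*Adgrb1*, which encodes the phosphatidylserine receptor BAI1, fell in culture at both ages, from 337 ± 47.0 to 31.4 ± 6.24 CPM in adult cells (−3.42 ± 0.24, adjusted p = 8.42e-12) and from 562 ± 122 to 150.01 ± 14.5 CPM in neonatal cells (−1.90 ± 0.22, adjusted p = 1.06e-07). Among 14 bridging molecules and opsonins, 9 were higher and 3 lower in adult culture and 6 were higher and 6 lower in neonatal culture, beside the same shares of all tested genes (38.8% and 39.2%, and 34.4% and 31.3%). This list holds *C1qa*, *C1qb* and *C1qc*, which are also in the microglial marker sum given above. The part of microglia in these counts was not tested. *Mfge8*, the ligand that joins phosphatidylserine to integrins, fell from 1380.2 ± 152 to 296 ± 25.9 CPM in adult cells (−2.22 ± 0.13, adjusted p = 3.82e-14) and from 2496 ± 422 to 123 ± 9.81 CPM in neonatal cells (−4.35 ± 0.14, adjusted p = 2.83e-18). The 2 phosphatidylserine ligands *Mfge8* and *Gas6* thus moved in opposite directions with culture at both ages. *Thbs1*, a matrix protein that also bridges to integrins, rose from 4.56 ± 0.885 to 2705 ± 400 CPM in adult culture (9.21 ± 0.24, adjusted p = 4.30e-20). *C3*, the complement component that tags material for uptake, rose from 1.29 ± 0.106 to 985 ± 241 CPM in neonatal culture (9.57 ± 0.40, adjusted p = 3.84e-15).

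In AGES against NSC 24 of the 62 genes were higher and 20 lower (median 0.098 against 0.00 over all tested genes). Of all tested genes 31.7% were called higher and 34% lower. *C3* rose from 2.08 ± 1.08 to 1622 ± 795 CPM (9.60 ± 0.40, adjusted p = 1.01e-15), and *Abca1*, a lipid transporter that acts with the engulfment pathway, rose by 3.08 ± 0.18 (adjusted p = 1.48e-13). *Lrpap1*, the chaperone of LRP1, was higher in AGES than in NSC (2.199 ± 0.18, adjusted p = 7.29e-11), AdAC CellC (1.70 ± 0.18, adjusted p = 4.20e-09) and neoAC CellC (1.33 ± 0.17, adjusted p = 2.42e-07), the 3 groups against which *Lrp1* itself was higher. Against AdAC CellC 17 of the 62 genes were higher in AGES and 34 lower (median −0.60, all genes −0.23). Beside this, 31% of all tested genes were higher and 45.2% lower. Against neoAC CellC 22 were higher and 28 lower (median −0.21, all genes −0.070), beside 34.1% and 40.5% of all tested genes. In neoAC CellC against AdAC CellC 7 were higher and 38 lower (median −0.57, all genes −0.085), beside 28.5% and 35.2% of all tested genes. In neoAC direct against AdAC direct 19 were higher and 28 lower (median −0.16, all genes 0.00), beside 35% and 36.4% of all tested genes. *Adam10*, another protease that sheds AXL, was likewise higher in AGES than in AdAC CellC (1.39 ± 0.09, adjusted p = 5.55e-13) and neoAC CellC (1.503 ± 0.09, adjusted p = 1.29e-13). *Sirpa*, the receptor of the CD47 signal that restrains uptake, fell in adult culture from 378 ± 24.9 to 71.6 ± 3.84 CPM (−2.40 ± 0.09, adjusted p = 8.69e-18). Among the 4 genes of vitamin K carboxylation, the modification that GAS6 and protein S need, 2 were higher and 1 lower in neonatal culture. In adult culture 0 were higher and 1 was lower. All tested genes were 34.4% higher and 31.3% lower in neonatal culture, and 38.8% and 39.2% in adult culture. *Aifm2*, a reductase of vitamin K, rose in neonatal culture (1.76 ± 0.17, adjusted p = 1.57e-09).

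**Figure D5:**
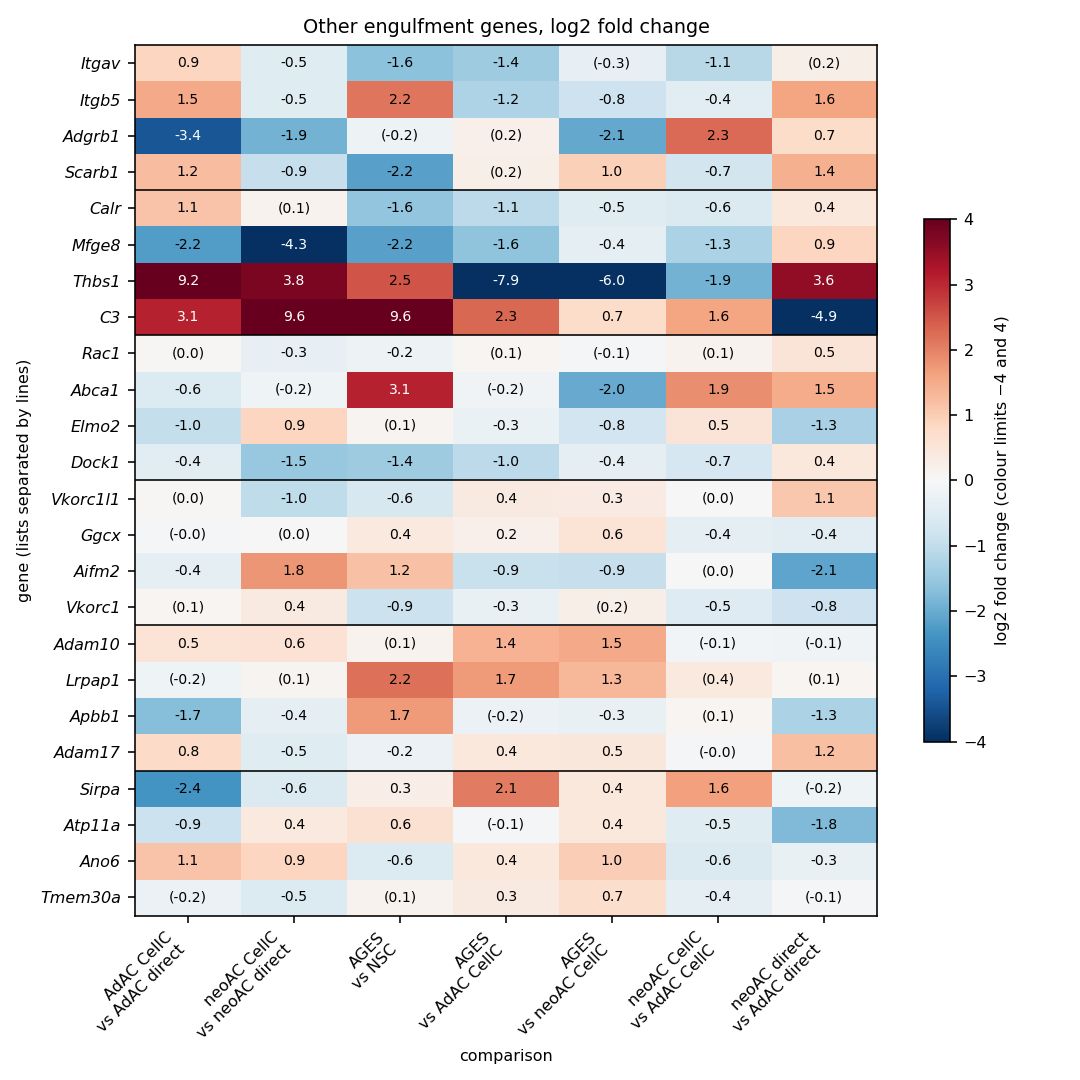
Log2 fold change in 7 comparisons of the 4 most highly counted genes of each of 6 lists, in the order other engulfment receptors, bridging molecules and opsonins, engulfment signalling, vitamin K carboxylation, TAM shedding and LRP1 partners, and phosphatidylserine exposure. Values in parentheses did not pass an adjusted p of 0.05, and the colours stop at −4 and 4. *Mfge8* was lower in culture at both ages (−2.22 and −4.35) and *Lrpap1* was higher in AGES in each of its 3 comparisons.

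Among 12578 genes, those whose log2 CPM followed each of the 8 most closely over the 24 libraries were listed as a description, since the 6 groups set most of this likeness. For *Gas6* they were *Efemp1* (r = 0.997) and *Prrg4* (0.995), and *Efemp1* had 77.5 ± 6.14 CPM in AdAC CellC and at most 0.0907 CPM on average in NSC and AGES. For *Axl* they were *Gadd45b* (0.975) and *Map3k14* (0.960), for *Megf10* *Cyb5d2* (0.983) and *Lgi4* (0.981), for *Mertk* *Dop1b* (0.979) and *Clk4* (0.975), and for *Tyro3* *Vps8* (0.974) and *Gga3* (0.962). *Lrp1* was closest to *Txnrd2* (0.942) and *Insyn1* (0.913), *Pros1* to *Resf1* (0.967) and *Cp* (0.949), and *Gulp1* to *Tmem200a* (0.945) and *Shisa3* (0.945). Among the 8 genes themselves, *Axl* and *Lrp1* had the highest correlation (r = 0.755) and *Tyro3* and *Gulp1* the lowest (r = −0.772), while *Axl* and *Mertk* were at 0.0365.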

How the data were processed

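The 24 libraries (4 per group) were analysed at the level of gene counts, with groups taken from the sample titles. The authors made stranded mRNA libraries, aligned paired-end reads to GRCm38 with STAR 2.7.3a, allowing several alignments per read, and counted on exons of Gencode vM12 with featureCounts. The deposited values are these counts per gene, whole numbers without normalization. Use of strand, read pairs and multi-mapping reads in counting is not given in the sources used here, so levels of genes with an antisense neighbour are uncertain. Symbols, positions and exon lengths came from Gencode vM21, where 49412 of 49671 identifiers (99.5%) were found.

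Counts were filtered with filterByExpr, scaled by TMM and fitted in 1 model of the 6 groups with edgeR 4.0.16 in R 4.3.3 (quasi-likelihood, robust, two-sided, Benjamini-Hochberg over 19691 genes, threshold 0.05). Standard errors were derived from each log2 fold change and its F statistic. Replicates of primary cells were separate isolations. The study's own fits used DESeq2, which is an alternative here (1.42.0). The other alternatives were DESeq2's size factors, scaling by library size only, no filter, at least 10 counts in every library, a fit of the compared groups alone with or without the replicate number as a block, and leaving out each library. Named genes were the 8 genes, the 4 genes of each pathway list with the highest mean CPM, and the 2 genes most correlated with each of the 8 (log2 CPM, prior count 2, at least 10 CPM in 1 group). Genes and lists were chosen with earlier results of these data known. A marker gene of the microglial list is not reported here and was left out of its sum. RefSeq promoter entries were found for 7 of the 8 genes. At 27904126 counts or more per library, intervals and floors cover counting error and the spread between libraries only.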

Additional observations from a re-analysis of the deposited data

Results flagged for a closer look

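The change with culture differed between adult and neonatal astrocytes, by the test of the interaction, in 7 of the 8 genes, where 35.4% of all tested genes had a called positive and 33.2% a called negative difference. The adult change minus the neonatal change was 2.88 on the log2 scale for *Axl*, 1.55 for *Gulp1* and 1.08 for *Lrp1*, and it was −2.57 for *Gas6*, −1.64 for *Megf10*, −1.35 for *Mertk* and −0.54 for *Tyro3*. *Axl* was the gene called in opposite directions at the 2 ages. In *Megf10*, *Lrp1* and *Gulp1* 1 of the 2 ages was called (the neonatal change of *Megf10* was also called in a fit of its 2 groups alone, and that of *Gulp1* with scaling by library size alone), and *Mertk*, *Tyro3* and *Gas6* were called in the same direction at both.

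In 4 of 48 combinations of gene and group, 1 library stood apart from the other 3 by Dixon's criterion, where chance gives about 2.4 at 1 in 20. These were *Mertk* in neoAC direct replicate 4 (82.0 CPM, above the others), *Axl* in AGES replicate 2 (334 CPM, below), *Lrp1* in neoAC direct replicate 4 (1349 CPM, below) and *Pros1* in NSC replicate 2 (81.6 CPM, above). Without neoAC direct replicate 4 the neonatal change of *Lrp1* with culture was −1.07.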

How the results depend on the processing

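Of 1024 alternative values for the 8 genes, 949 kept direction and side of the threshold, 44 lost the call, 5 gained one and 26 changed sign. The values that changed sign were uncalled in the reported fit. With DESeq2's size factors, library size only, no filter, at least 10 counts and the DESeq2 Wald test, the *Pros1* interaction was −0.072, −0.12, −0.016, −0.11 and −0.072, and *Gas6* in neoAC CellC against AdAC CellC was 0.071, 0.047, 0.046, 0.067 and 0.071. *Lrp1* there was 0.016, 0.011 and 0.016 with the size factors, at least 10 counts and the Wald test. *Megf10* in neonatal culture was 0.061 with library size only. Leaving out 1 library, the *Pros1* interaction spanned −0.086 to 0.11, *Gas6* in AGES against NSC −0.12 to 0.35, and *Gas6* in neoAC CellC against AdAC CellC −0.086 to 0.066.

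The labels tie the replicate numbers to no shared animal or batch, and same-numbered libraries did not deviate together (correlations of −0.0953 to 0.106). In the fit of the compared groups alone, with the replicate block, *Gas6* and *Lrp1* in neoAC CellC against AdAC CellC were 0.065 and 0.0034, against 0.059 and 0.0039 without the block. *Megf10* in neonatal culture was called in both (−0.20, adjusted p = 0.0359 with the block and 0.0253 without), and *Pros1* in AGES against AdAC CellC was not called with it (0.50, adjusted p = 0.0590).

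The number of the 8 genes called in neoAC CellC against AdAC CellC was 5, and 3 with no filter. Leaving out 1 library gave 3 to 4, with 3 without AdAC CellC replicate 2 or 4 or neoAC CellC replicate 1 or 3. Scaling by library size only moved the median of all genes to 0.27 in neonatal culture, −0.45 in AGES against AdAC CellC and −0.37 in AGES against neoAC CellC. The split of all called genes then went from 6766 higher and 6170 lower to 8628 and 4468 in neonatal culture, and from 6710 and 7977 to 4504 and 9822 in AGES against neoAC CellC. *Gulp1* in neonatal culture was called with it (0.36, adjusted p = 0.0396).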
